A study of Homo sapiens with 4 samples.

Results

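Integrin and laminin genes were followed across spheroids of 4 established human colon cell lines. Members were chosen by gene symbol alone: the integrin alpha and beta chains, and the laminin alpha, beta and gamma chains. The rule found 38 of the 58740 genes in the table, namely 18 integrin alpha genes, 8 integrin beta genes and 12 laminin genes (5 alpha, 4 beta and 3 gamma). The lines were HCT116, DLD-1 and SW620, which were derived from colorectal cancer and are each given as wild type (WT), and HCEC-1CT, a non-cancerous colon line likewise given as WT and known to be immortalised with CDK4 and telomerase. All 4 were grown for 7 days as free-floating spheroids in low-attachment plates of 24 wells with 10% fetal bovine serum. Compact spheroids were collected by eye under a microscope, and RNA was taken from 2 plates per line. Each line gave 1 library, so no difference has a replicate check, no test was run, and the 3 cancer lines are not replicates of each other.

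Integrins are cell surface receptors made of 1 alpha and 1 beta chain, and the pair decides which matrix protein or cell surface ligand is bound. Laminins are trimers of 1 alpha, 1 beta and 1 gamma chain and are the main glycoproteins of basement membranes. In gut epithelium the pairs ITGA3/ITGB1, ITGA6/ITGB1 and ITGA6/ITGB4 bind laminins. ITGA6/ITGB4 anchors keratin filaments in hemidesmosomes, for which laminins with the LAMA3 chain are classical ligands. Fibroblasts and other mesenchymal cells typically use collagen receptors such as ITGA1/ITGB1 and ITGA11/ITGB1, fibronectin receptors such as ITGA5/ITGB1, and vitronectin receptors such as ITGAV/ITGB3.

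Values are FPKM, fragments scaled to transcript length and to library size, which allow levels of different genes to be compared per length. Libraries held about 25300000 (HCT116), 23300000 (DLD-1), 28700000 (SW620) and 29500000 (HCEC-1CT) fragments, as read from steps in the low values. At 1 FPKM a transcript of 2 kb then stood for 50.6, 46.7, 57.5 and 59.0 fragments in that order, so the missing second library, and not counting error, limits a 4-fold difference at this level. Ratios are log2 ratios of FPKM plus 1, and the added 1 makes changes of low genes look smaller. A gene was called higher or lower at a 4-fold ratio where the higher of both libraries reached 1 FPKM. All 3 ratios against HCEC-1CT share the HCEC-1CT library. By the median ratio of 10409 genes at 1 FPKM or more in every library, the cancer lines lay 0.38 (HCT116), 0.41 (DLD-1) and 0.29 (SW620) above HCEC-1CT on the log2 scale.

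Before the integrins and laminins are described, the labels need a remark. All lines are given as epithelial. The 9 colon epithelium markers summed to 1538 (HCT116), 5411 (DLD-1), 6776 (SW620) and 7.25 FPKM (HCEC-1CT), and EPCAM, CDH1, KRT19, KRT20 and CDX2 were listed at 0 in HCEC-1CT. The 9 fibroblast markers summed to 12.7, 1.46, 28.0 and 1087 FPKM in the same order. All 9 were at 1 FPKM or more in HCEC-1CT, and all 9 were lower by the 4-fold rule in each cancer line. The label of HCEC-1CT therefore goes against its markers, and each comparison with HCEC-1CT sets keratin-rich cancer lines against a library carrying fibroblast genes. The part of these marker differences in the integrin and laminin results was not tested, and in bulk RNA fewer cells of a type and less RNA per cell cannot be told apart. Endothelial markers summed to 0.849 (HCT116), 2.56 (DLD-1), 15.8 (SW620) and 5.45 FPKM (HCEC-1CT), led by PECAM1 at 15.0 FPKM in SW620. Leukocyte markers summed to 6.02, 1.81, 41.3 and 17.0 FPKM in the same order, and in SW620 most of the sum was LYZ (lysozyme) at 24.5 FPKM and CD68, a lysosomal protein of macrophages, at 16.6 FPKM. PTPRC, the defining leukocyte gene, was at 0.129 FPKM or less throughout. The 4 smooth muscle and pericyte markers summed to 20.3 (HCT116), 1.76 (DLD-1), 4.41 (SW620) and 31.2 FPKM (HCEC-1CT).

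Of the 38 members, 31 reached 1 FPKM in at least 1 library and 12 in all 4. Members at 1 FPKM or more numbered 22 in HCT116, 19 in DLD-1, 22 in SW620 and 20 in HCEC-1CT. ITGA8, ITGA9, ITGAD, ITGAL, ITGAM, ITGB2 and LAMB4 stayed below 1 FPKM everywhere, with highest values of 0.158, 0.401, 0.0101, 0.0795, 0.220, 0.330 and 0.0135 FPKM in that order. ITGAD, ITGAL, ITGAM and ITGB2 are leukocyte integrin chains, and ITGAX, a leukocyte chain between ITGAM and ITGAD on chromosome 16, reached 1.72 FPKM in HCT116. Protein-coding transcripts of ITGAX held 0.378 FPKM there.

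Against HCEC-1CT, 7 members were higher in HCT116 and 7 were lower, of 28 that reached 1 FPKM in either library; the background was 10.3% of all genes higher and 5.73% lower. In DLD-1 5 members were higher and 9 lower of 27, against 10.4% and 6.3% of all genes. In SW620 8 were higher and 7 lower of 28, against 10.3% and 6.36%. Calls in both directions were a larger share of the members than of all genes in each line. In all 3 lines 4 members were higher, ITGA6, ITGB4 and LAMA3 among them, and 6 were lower (ITGA1, ITGA2, ITGA4, ITGB3, LAMA1 and LAMA4), of 31, where 2.68% and 2.99% of all genes were. The median ratio of the 31 members was -0.24 (HCT116), -0.09 (DLD-1) and -0.29 (SW620), beside 0.27, 0.33 and 0.21 over all genes so filtered. The members thus did not move together: ITGA6, ITGB4 and LAMA3, chains of the hemidesmosome and its ligand, were higher in each cancer line, and ITGA1 and ITGA2 of the collagen receptors and ITGB3 of the vitronectin receptor were lower. Of the 38 members, 19 were called in none of the 3 comparisons with HCEC-1CT. They include the 7 members below 1 FPKM everywhere, which the rule could not call. The matching share of all genes was not computed, so no result is read from this count.

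**Figure D1:**
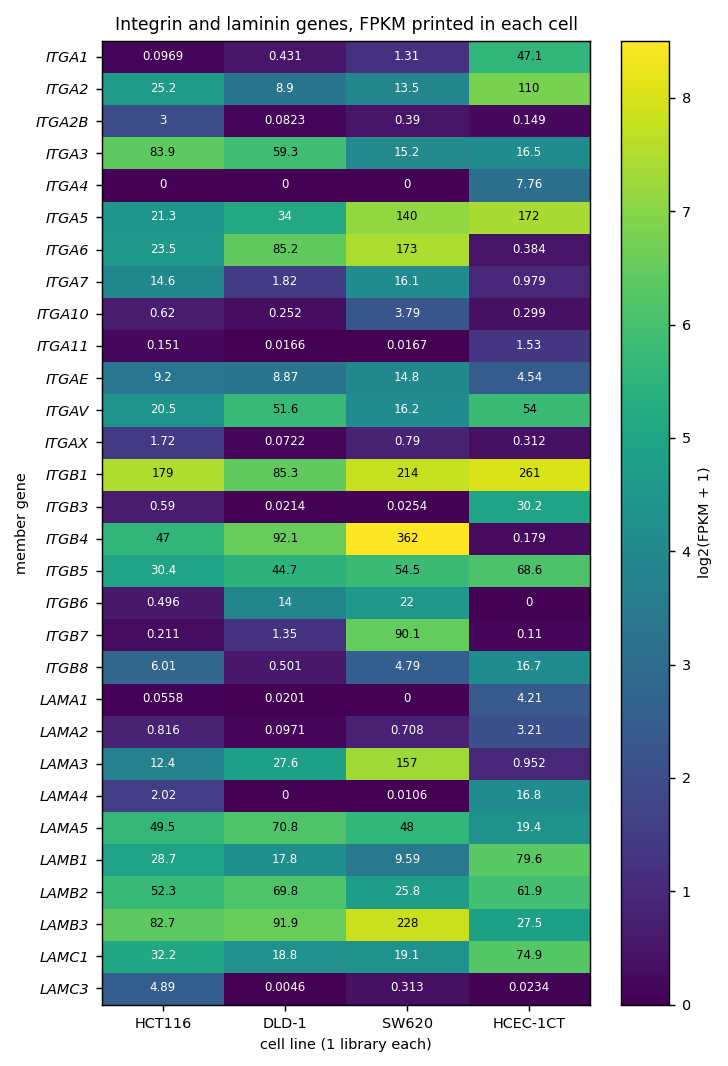
Heat map of FPKM in 30 of the 31 integrin and laminin genes that reached 1 FPKM in a library. Colour is log2(FPKM + 1), columns are the 4 lines with 1 library each, and the printed number is the FPKM; ITGA6 and ITGB4 are bright in the 3 cancer lines and dark in HCEC-1CT, and ITGA1 and ITGB3 show the opposite.

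The laminin receptor chains came first among the higher members. ITGA6 (ENSG00000091409), the alpha chain shared by both epithelial laminin receptors, had 23.5 (HCT116), 85.2 (DLD-1) and 173 (SW620) FPKM, against 0.384 FPKM in HCEC-1CT. Its log2 ratios over HCEC-1CT were 4.14, 5.96 and 6.97. It is on chromosome 2 of hg38 (chr2:172427354-172506282, plus strand). SW620 held 2.03 times the FPKM of DLD-1 and 7.37 times that of HCT116.

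ITGB4 (ENSG00000132470; chr17:75721328-75757818), the beta chain of hemidesmosomes, had 47.0 (HCT116), 92.1 (DLD-1) and 362 (SW620) FPKM, against 0.179 FPKM in HCEC-1CT. The log2 ratios were 5.35, 6.30 and 8.27, and SW620 was 2.92 above HCT116 on the same scale. About 20 fragments carried the HCEC-1CT value, against 53456 in SW620. Protein-coding transcripts of ITGB4 held 26.0 (HCT116), 46.3 (DLD-1), 302 (SW620) and 0.140 FPKM (HCEC-1CT). In DLD-1 45.1% of ITGB4 lay in ITGB4-212, a processed transcript with no annotated protein, at 41.5 FPKM. ITGB4 was the highest of all members in SW620, and ITGB1 in HCT116 and HCEC-1CT. In DLD-1 ITGB4 and LAMB3 (91.9 FPKM) were level. GALK1 overlaps ITGB4 on the other strand and had 19.8, 6.19, 10.6 and 5.11 FPKM in HCT116, DLD-1, SW620 and HCEC-1CT. The sources used here do not say whether the libraries kept strand, so reads of overlapping genes on opposite strands cannot be told apart.

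ITGA6 is made with alternative cytoplasmic tails, known as variants A and B, whose last coding bases are printed because the transcript table separates them. Capitals mark the stop codon; both are on the plus strand of chromosome 2 (GENCODE 29, hg38).
ITGA6 variant A tail, chr2:172501772-172501879: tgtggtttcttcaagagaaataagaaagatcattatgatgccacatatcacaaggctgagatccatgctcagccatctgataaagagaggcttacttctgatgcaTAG
ITGA6 variant B tail, chr2:172504091-172504252: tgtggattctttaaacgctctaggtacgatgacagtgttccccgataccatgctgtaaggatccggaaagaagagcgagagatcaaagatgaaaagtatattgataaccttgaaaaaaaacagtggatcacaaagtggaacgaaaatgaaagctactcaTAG
Transcript ITGA6-201 holds the A exon of 130 bases and ITGA6-202 lacks it. The A transcript had 7.24 (HCT116), 28.2 (DLD-1), 57.6 (SW620) and 0.317 FPKM (HCEC-1CT). The B transcript had 13.5, 39.9 and 100.3 FPKM in the cancer lines and was listed at 0 in HCEC-1CT. Of the sum of both, the A transcript made up 34.9% (HCT116), 41.4% (DLD-1) and 36.5% (SW620). In HCEC-1CT it made up 100%, of a gene with about 54 fragments. The B tail was thus the more abundant of the pair in each cancer line.

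The beta chain ITGB1, partner of most alpha chains, was abundant everywhere, with 179 (HCT116), 85.3 (DLD-1), 214 (SW620) and 261 FPKM (HCEC-1CT). Its log2 ratios of -0.54, -1.60 and -0.29 were under the 4-fold threshold. ITGB1P1, a copy on chromosome 19 (chr19:14621555-14623298), was listed at 47.8% (HCT116), 43.4% (DLD-1), 42.7% (SW620) and 52.8% (HCEC-1CT) of the ITGB1 FPKM. FPKM is per length, so these are not shares of reads. How alike both loci are was not measured, and the split of reads between them is uncertain. With the FPKM of both summed, which is not a sum of reads, the ratios were -0.59, -1.70 and -0.39. The ratio of ITGB4 to ITGB1 FPKM was 0.262 (HCT116), 1.08 (DLD-1), 1.69 (SW620) and 0.000687 (HCEC-1CT). In protein-coding transcripts alone it was 0.156, 0.555, 1.51 and 0.000552, so that in DLD-1 ITGB1 was then the higher of both. Of all integrin beta FPKM, ITGB1 held 67.9% in HCT116, 35.8% in DLD-1, 28.6% in SW620 and 69.3% in HCEC-1CT.

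**Figure D2:**
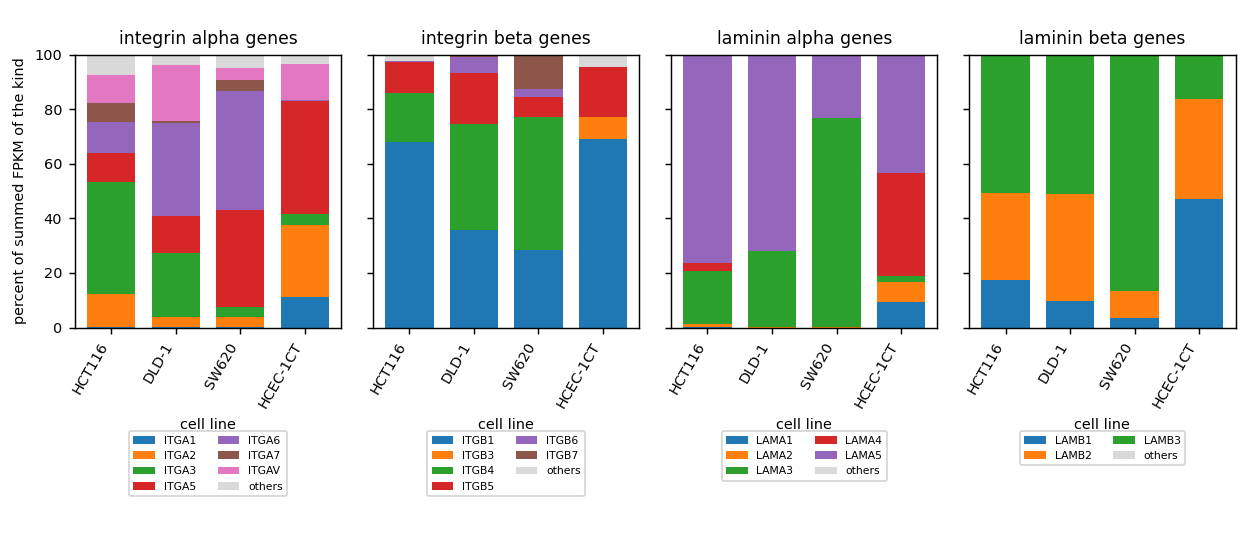
Stacked bars of the percent of summed FPKM that each gene takes within its chain kind (integrin alpha, integrin beta, laminin alpha or laminin beta), for HCT116, DLD-1, SW620 and HCEC-1CT (1 library each). Genes under 5% in every line are grouped as others; ITGB4 takes 17.8% to 48.5% of beta chain FPKM in the cancer lines and 0.0476% in HCEC-1CT.

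Other laminin receptor chains differed between lines. ITGA3 (chr17:50055968-50090481), the alpha chain of a receptor for the LAMA3 and LAMA5 laminins, had 83.9 (HCT116), 59.3 (DLD-1), 15.2 (SW620) and 16.5 FPKM (HCEC-1CT). The log2 ratios over HCEC-1CT were 2.28, 1.79 and -0.11, and SW620 was -2.39 against HCT116. The HCT116 ratio was 1.90 with median-ratio scaling, below the 4-fold threshold, and in protein-coding transcripts alone ITGA3 was also called higher in DLD-1. ITGA7, a laminin receptor chain best known from muscle, had 14.6, 1.82, 16.1 and 0.979 FPKM in HCT116, DLD-1, SW620 and HCEC-1CT. It was thus highest in HCT116 and SW620. Among the smooth muscle and pericyte markers DES, the muscle intermediate filament, had 4.15, 0, 2.50 and 0.0151 FPKM in the same order, ACTA2 14.4, 1.30, 0.713 and 10.6 FPKM, and RGS5 1.62, 0.431, 1.09 and 20.6 FPKM, and their part in the ITGA7 level was not tested. METTL7B and BLOC1S1 overlap ITGA7 on the other strand, with BLOC1S1 at 16.4, 26.4, 64.4 and 15.8 FPKM in the same order. Protein-coding transcripts held 52.4% (HCT116), 9.01% (DLD-1) and 56.3% (SW620) of ITGA7.

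Of the 4 collagen receptor chains, ITGA1 and ITGA2 were lower in each cancer line, and ITGA10 and ITGA11 were called in none. ITGA1 (chr5:52787896-52959210), a collagen receptor chain of mesenchymal cells, had 0.0969 (HCT116), 0.431 (DLD-1) and 1.31 (SW620) FPKM, against 47.1 FPKM in HCEC-1CT. Its log2 ratios were -5.46, -5.07 and -4.38. PELO overlaps ITGA1 on the same strand and had 6.72, 5.46, 6.98 and 14.2 FPKM in HCT116, DLD-1, SW620 and HCEC-1CT. ITGA2, the collagen receptor chain of epithelia and platelets, lies 30.1 kb from ITGA1 on the same strand. It had 25.2, 8.90, 13.5 and 109.7 FPKM in HCT116, DLD-1, SW620 and HCEC-1CT, with log2 ratios of -2.08, -3.48 and -2.93. Protein-coding transcripts of ITGA2 held 19.7, 4.70, 12.2 and 107.9 FPKM in the same order. Both neighbours were lower in each cancer line, where ITGA1 had 1.31 FPKM or less and ITGA2 8.90 FPKM or more. ITGA11, a fibrillar collagen receptor chain of fibroblasts, had 0.151, 0.0166, 0.0167 and 1.53 FPKM, and ITGA10, which also binds collagen, had 0.620, 0.252, 3.79 and 0.299 FPKM.

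Fibronectin and vitronectin receptor chains differed by line. ITGA5, the fibronectin receptor chain, had 21.3 (HCT116), 34.0 (DLD-1), 139.5 (SW620) and 172 FPKM (HCEC-1CT), with log2 ratios of -2.95, -2.30 and -0.30. SW620 was 2.65 above HCT116 and 2.00 above DLD-1. The background of genes 4-fold higher in SW620 was 4.37% over HCT116 and 5.35% over DLD-1. ITGAV, the alpha chain that pairs with ITGB3, ITGB5, ITGB6 and ITGB8, had 20.5, 51.6, 16.2 and 54.0 FPKM, with log2 ratios of -1.35, -0.06 and -1.67.

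ITGB3, the beta chain of the vitronectin receptor, had 0.590, 0.0214, 0.0254 and 30.2 FPKM in HCT116, DLD-1, SW620 and HCEC-1CT. The ratios were -4.29, -4.93 and -4.93, resting on 60, 2 and 3 fragments in the cancer lines and 3412 in HCEC-1CT. ITGB6, the epithelial beta chain that activates latent TGF-beta, had 0.496, 14.0 and 22.0 FPKM in HCT116, DLD-1 and SW620 and was listed at 0 in HCEC-1CT. No fold is given against that 0, but SW620 was 3.94 and DLD-1 3.32 above HCT116 on the log2 scale. ITGB6 and ITGB3 thus had opposite patterns: ITGB6 was present in DLD-1 and SW620, and ITGB3 in HCEC-1CT. In DLD-1 27.9% of ITGB6 lay in protein-coding transcripts, with 10.1 FPKM in ITGB6-202, an annotated nonsense-mediated decay transcript.

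ITGB5, a further partner of ITGAV, had 30.4, 44.7, 54.5 and 68.6 FPKM and was called in no comparison. ITGB8, which also activates latent TGF-beta, had 6.01, 0.501, 4.79 and 16.7 FPKM in HCT116, DLD-1, SW620 and HCEC-1CT. Its log2 ratio was -3.56 in DLD-1, the only line called, and DLD-1 was -2.22 against HCT116, where 5.51% of all genes were 4-fold lower and 5.04% higher.

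Chains known from leukocytes and platelets were next. ITGB7, a beta chain of lymphocytes, had 0.211 (HCT116), 1.35 (DLD-1), 90.1 (SW620) and 0.110 FPKM (HCEC-1CT), and the SW620 log2 ratio over HCEC-1CT was 6.36. It was 4-fold higher in SW620 than in each other line, as 1.57% of all genes were, and 94.9% of its SW620 FPKM lay in protein-coding transcripts. ZNF740 overlaps it on the other strand and had 8.29 to 9.83 FPKM in the 4 lines. ITGA4, a partner of ITGB7 and ITGB1 in lymphocytes, was listed at 0 in the 3 cancer lines and at 7.76 FPKM in HCEC-1CT. ITGAE, the partner of ITGB7 that binds CDH1, had 9.20, 8.87, 14.8 and 4.54 FPKM, but protein-coding transcripts of ITGAE held 0.142 FPKM in HCT116, 0 in DLD-1, 0.00205 in SW620 and 0 in HCEC-1CT. Of the 6 leukocyte markers, LYZ had 0.183, 0, 24.5 and 0 FPKM and CD68 4.65, 1.40, 16.6 and 7.56 FPKM in HCT116, DLD-1, SW620 and HCEC-1CT, both highest in SW620 as ITGB7 was. PTPRC was at 0.129 FPKM in SW620 and CD3E was listed at 0 there. The part of these markers in the ITGB7 level was not tested. ITGA2B, the platelet fibrinogen receptor chain, had 3.00, 0.0823, 0.390 and 0.149 FPKM, and platelet markers summed to 0.762 FPKM or less. In HCT116 protein-coding transcripts of ITGA2B held 0.621 FPKM.

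**Figure D3:**
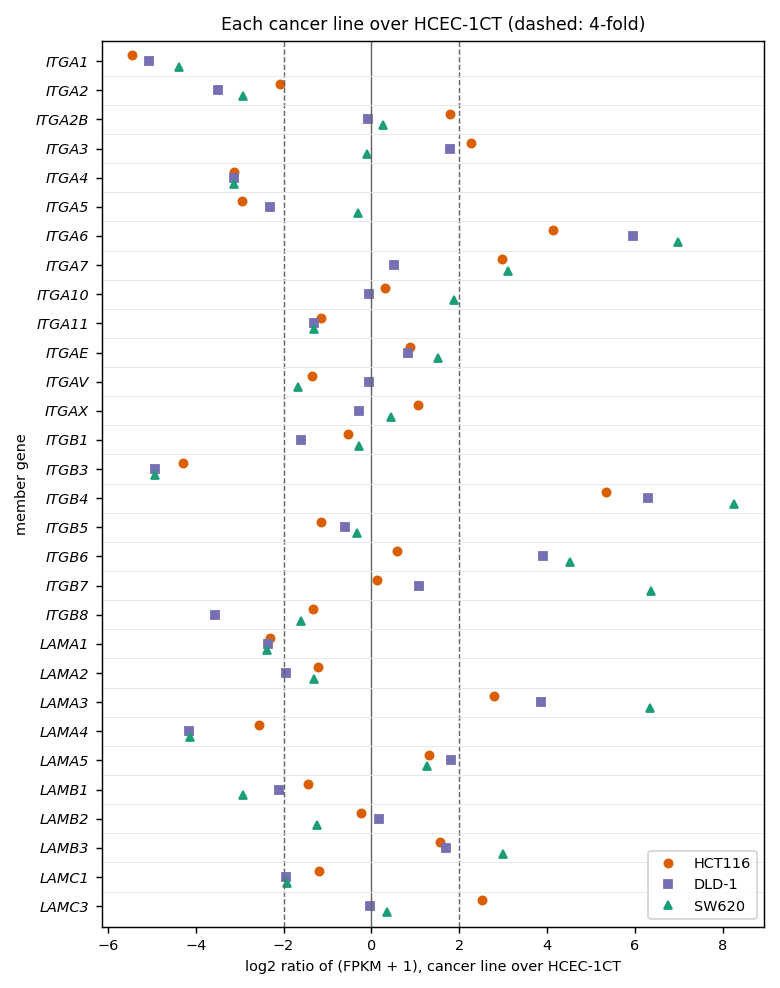
Points give the log2 ratio of (FPKM + 1) of HCT116, DLD-1 and SW620 over HCEC-1CT for 30 of the 31 members at 1 FPKM or more in a library. Dashed lines mark 4-fold; ITGB4 lies at 5.35 to 8.27 and ITGA1 at -5.46 to -4.38.

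Laminin chains also differed in both directions. LAMA3, the alpha chain of the epithelial laminin, had 12.4 (HCT116), 27.6 (DLD-1) and 157 (SW620) FPKM, against 0.952 FPKM in HCEC-1CT. Log2 ratios were 2.78, 3.87 and 6.34, and SW620 was 4-fold higher than each other line. The order of the cancer lines was that of ITGA6 and ITGB4, with SW620 highest and HCT116 lowest. LAMB3, the beta chain found with LAMA3 in hemidesmosomes, had 82.7, 91.9, 228 and 27.5 FPKM, with ratios of 1.55, 1.71 and 3.00, called in SW620 alone.

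HCEC-1CT therefore carried LAMB3 at 27.5 FPKM with LAMA3 below 1 FPKM. LAMC1, the common gamma chain, had 32.2, 18.8, 19.1 and 74.9 FPKM in HCT116, DLD-1, SW620 and HCEC-1CT. Its log2 ratios were -1.19, -1.94 and -1.92, short of the 4-fold threshold. In protein-coding transcripts alone LAMC1 had 23.7, 12.3, 12.9 and 71.2 FPKM and was called lower in DLD-1 and SW620.

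Transcripts of LAMB3 differed in their start. LAMB3-201 and LAMB3-202 begin near each other upstream, at separate starts, and together had 57.3 (HCT116), 77.8 (DLD-1) and 194 (SW620) FPKM, against 0.0833 FPKM in HCEC-1CT. They made up 69.3%, 84.6%, 85.0% and 0.303% of LAMB3. The other 3 transcripts had 25.4, 14.1, 34.1 and 27.4 FPKM. LAMB3-203, which begins at the downstream start, made up 87.7% of LAMB3 in HCEC-1CT and 12.4% to 26.5% in the cancer lines. The difference between the lines thus lay in the upstream transcripts. LAMB3-202 had 0.0496, 17.3, 54.3 and 0 FPKM, so that in HCT116 nearly all of the upstream level was LAMB3-201. RefSeq has 3 starts, of which the second lies 96 bases and the third 1051 bases downstream of the first, and the coding exons of LAMB3-201 and LAMB3-203 are the same.

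The 250 bases before the first (upstream) and the third (downstream) LAMB3 start are printed from RefSeq (GRCh38.p14), together with those before the start of the short LAMA3 transcript, because LAMA3 and the upstream LAMB3 transcripts were both higher in each cancer line. Capitals mark each match to the AP-1 motif TGANTCA, which reads the same on both strands.
LAMA3, chr18:23872770-23873019, plus strand: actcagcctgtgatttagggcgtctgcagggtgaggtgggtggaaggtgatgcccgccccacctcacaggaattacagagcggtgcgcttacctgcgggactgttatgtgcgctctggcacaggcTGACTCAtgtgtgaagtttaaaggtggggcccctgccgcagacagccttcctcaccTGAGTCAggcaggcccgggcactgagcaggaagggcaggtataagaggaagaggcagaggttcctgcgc
LAMB3 upstream start, chr1:209652426-209652675, minus strand: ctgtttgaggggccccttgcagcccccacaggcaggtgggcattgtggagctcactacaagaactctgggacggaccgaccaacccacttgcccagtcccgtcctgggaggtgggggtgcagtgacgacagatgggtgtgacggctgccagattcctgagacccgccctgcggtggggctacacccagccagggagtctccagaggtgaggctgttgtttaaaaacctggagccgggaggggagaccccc
LAMB3 downstream start, chr1:209651375-209651624, minus strand: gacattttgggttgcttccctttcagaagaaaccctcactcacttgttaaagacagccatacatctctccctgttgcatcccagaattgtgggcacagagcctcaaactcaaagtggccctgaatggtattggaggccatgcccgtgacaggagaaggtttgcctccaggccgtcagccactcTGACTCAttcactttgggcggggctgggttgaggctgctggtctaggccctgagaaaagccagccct
GENCODE 29 places the start of LAMB3-201 inside the upstream LAMB3 window, 41 bases before the RefSeq start. It also places the start of LAMA3-201 inside the LAMA3 window, with a first exon at chr18:23872840-23873215. Both AP-1 matches of the LAMA3 window lie within that exon, and not before the GENCODE start. LAMB3-202 begins at the second RefSeq start, whose window overlaps the upstream one and held 0 AP-1 matches. The LAMA3 window held 2 AP-1 matches, that of the downstream LAMB3 start 1 and that of the upstream start 0. Of 35116 RefSeq promoters of the same length 6.57% held at least 1 match and 0.402% at least 2. Of 33 promoter windows of 26 members, 2 held a match. The motif CAGGTG, searched on both strands, was in 8 of the 33 and in 17.5% of all promoters.

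LAMA3 itself has a short and a long form. LAMA3-201, the short form, had 10.6, 5.36 and 96.7 FPKM in HCT116, DLD-1 and SW620 and was listed at 0 in HCEC-1CT. LAMA3-202, the long form, had 0.803, 11.8, 23.0 and 0.685 FPKM. The short form made up 93.0% (HCT116), 31.3% (DLD-1) and 80.8% (SW620) of the pair. DLD-1 therefore carried more of the long form than of the short form, and the other 2 cancer lines more of the short form.

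**Figure D4:**
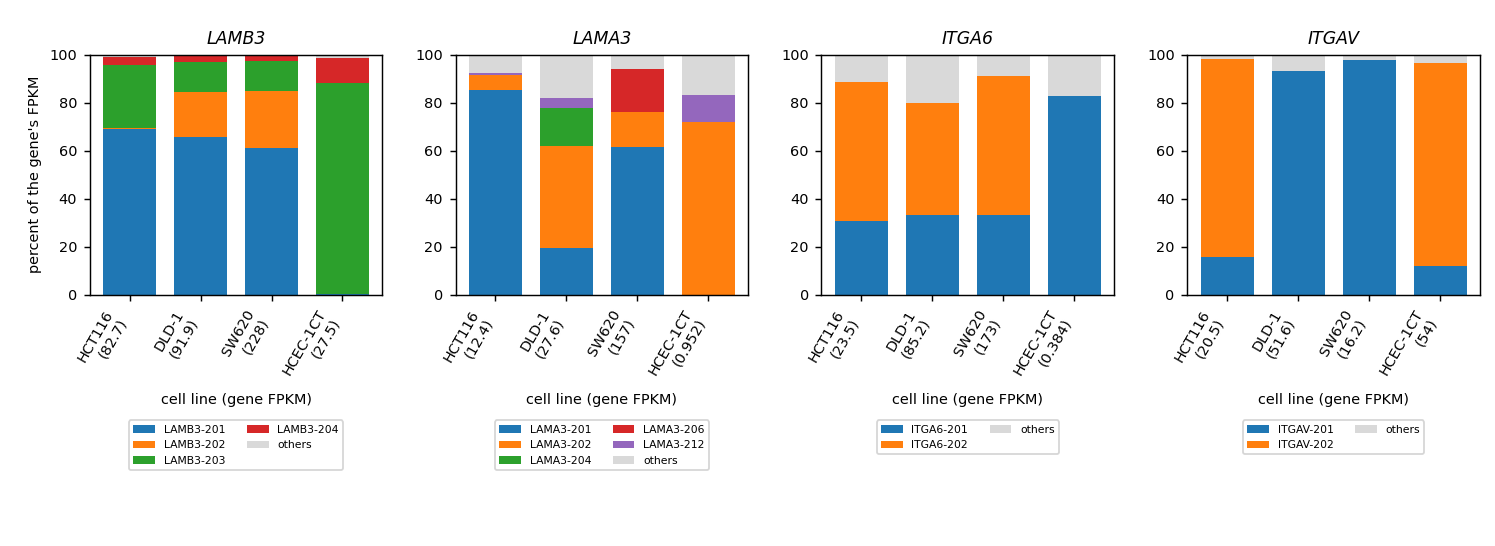
Stacked bars of the percent of each gene's FPKM in its main transcripts, for LAMB3, LAMA3, ITGA6 and ITGAV in HCT116, DLD-1, SW620 and HCEC-1CT, with the gene FPKM under each bar. LAMB3-201 makes up 61.2% to 69.2% of LAMB3 in the cancer lines and 0.303% in HCEC-1CT.

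Of the 4 remaining laminin alpha chains, LAMA1 and LAMA4 were lower in each cancer line, and LAMA2 and LAMA5 were called in none. LAMA4, a chain of vessel and mesenchymal basement membranes, had 2.02 (HCT116), 0 (DLD-1), 0.0106 (SW620) and 16.8 FPKM (HCEC-1CT). LAMA1, a chain of early embryonic basement membranes, had 0.0558 FPKM in HCT116, 0.0201 in DLD-1, 0 in SW620 and 4.21 in HCEC-1CT. In protein-coding transcripts alone HCEC-1CT had 2.88 FPKM of LAMA1, and all 3 of its calls were lost. LAMA2, the muscle laminin chain, had 0.816, 0.0971, 0.708 and 3.21 FPKM. LAMA5, the broadest epithelial alpha chain, was abundant in every line, with 49.5, 70.8, 48.0 and 19.4 FPKM, and was not called. Its protein-coding transcripts held 20.2, 26.7, 24.1 and 13.9 FPKM, and retained-intron transcripts 48.5%, 53.6%, 38.5% and 23.7% of the gene. ADRM1 overlaps LAMA5 on the other strand at 42.3 to 78.9 FPKM.

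Of the beta and gamma chains, LAMB1, a broadly expressed beta chain, had 28.7 (HCT116), 17.8 (DLD-1), 9.59 (SW620) and 79.6 FPKM (HCEC-1CT), with ratios of -1.44, -2.10 and -2.93. In protein-coding transcripts the DLD-1 call of LAMB1 was lost. LAMB2, a beta chain of mature basement membranes, had 52.3, 69.8, 25.8 and 61.9 FPKM and was not called. LAMC3, a gamma chain of narrow tissue range, had 4.89 FPKM in HCT116, 0.00460 in DLD-1, 0.313 in SW620 and 0.0234 in HCEC-1CT. HCT116 was 4-fold above each other line, as 1.27% of all genes were. Below each other line 0 members lay in HCT116 (0.193% of all genes), and 0 in SW620 (0.376%). In DLD-1 0 members lay above each other line (1.56% of all genes) and 0 below (0.553%).

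Chains were then combined into complexes, taking the lowest chain as the level. Of 24 known integrin pairs, both chains were at 1 FPKM or more for 9 in HCT116, 10 in DLD-1, 13 in SW620 and 10 in HCEC-1CT, 5 of them in all lines. ITGA6/ITGB4 stood at 23.5, 85.2 and 173 FPKM in HCT116, DLD-1 and SW620 and at 0.179 FPKM in HCEC-1CT. ITGAV/ITGB3 stood at 0.590, 0.0214 and 0.0254 FPKM in those cancer lines and at 30.2 FPKM in HCEC-1CT. With protein-coding transcripts alone the counts were 9, 8, 11 and 10.

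Of 13 laminin trimers, 8 had all chains in HCT116, 4 in DLD-1, 4 in SW620 and 8 in HCEC-1CT. Both LAMA5 trimers with LAMC1 (with LAMB1 or LAMB2) had all chains in every line. LAMA5/LAMB2/LAMC1 stood at 32.2, 18.8, 19.1 and 19.4 FPKM, a range of less than 2-fold. Levels of RNA say nothing of assembled or secreted protein.

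**Figure D5:**
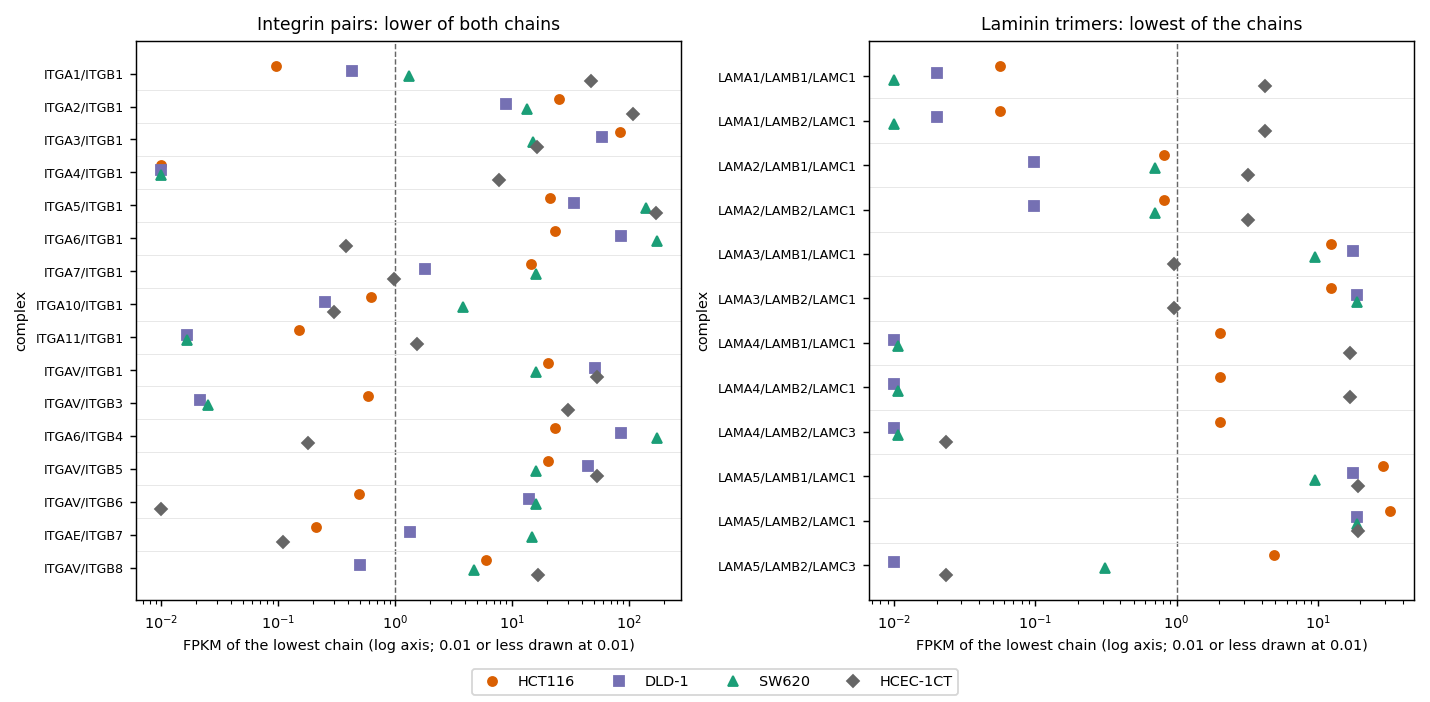
FPKM of the lowest chain (log axis) of each integrin pair and laminin trimer that reached 1 FPKM in a line, in HCT116, DLD-1, SW620 and HCEC-1CT. The dashed line marks 1 FPKM; ITGA6/ITGB4 lies at 23.5 to 173 FPKM in the cancer lines and at 0.179 FPKM in HCEC-1CT.

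Receptors were paired with ligands over the 4 lines. Of 31 pairs of a receptor and a ligand, both were present for 10 in HCT116, 8 in DLD-1, 12 in SW620 and 13 in HCEC-1CT, and for 2 in all lines, which were ITGA3/ITGB1 with the LAMA5 trimers. No pair with a LAMA3 trimer was among the 31, so the counts do not rank the lines by matched receptors and ligands. LAMA3/LAMB2/LAMC1 stood at 12.4 (HCT116), 18.8 (DLD-1), 19.1 (SW620) and 0.952 FPKM (HCEC-1CT). In HCEC-1CT the LAMA5 trimers were present and ITGA6 was below 1 FPKM. Fibronectin (FN1) stood at 6.37 (HCT116), 0.862 (DLD-1), 9.13 (SW620) and 115 FPKM (HCEC-1CT). In DLD-1 ITGA5/ITGB1 thus had 34.0 FPKM and FN1 RNA was below 1 FPKM. The medium held 10% fetal bovine serum, and ligand protein from serum was not measured. Vitronectin (VTN) was at 0.0185 FPKM or less in the cancer lines and at 1.44 FPKM in HCEC-1CT. For ITGAV/ITGB6, TGFB1, whose latent form it activates, stood at 61.7, 14.9, 55.4 and 81.9 FPKM. CDH1, the ligand of ITGAE/ITGB7, had 27.2, 189 and 129 FPKM in the cancer lines and was listed at 0 in HCEC-1CT. This pair was counted as present in DLD-1 and SW620, where protein-coding ITGAE held 0 and 0.00205 FPKM. The counts of receptor and ligand pairs used gene FPKM and were not repeated on protein-coding transcripts.

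Transcript switches were then counted. Of 12 members with 2 or more transcripts and 5 FPKM or more in both libraries, the most abundant transcript differed from that of HCEC-1CT for 3. These were LAMB3 in all 3 lines, ITGAV in DLD-1 and SW620, and ITGB5 in HCT116 and SW620. The share of all genes with such a switch was not computed, so the count is not read as low or high. For ITGB5 the transcripts were close: ITGB5-201 and ITGB5-202 made up 27.2% and 22.6% in HCT116, 32.9% and 32.0% in SW620, and 31.3% and 38.2% in HCEC-1CT. ITGB5-201 is annotated as protein-coding and ITGB5-202 as a retained-intron transcript. ITGAV-201 had 3.25 (HCT116), 48.0 (DLD-1), 15.9 (SW620) and 6.37 FPKM (HCEC-1CT). ITGAV-202 had 16.9 FPKM in HCT116 and 45.8 FPKM in HCEC-1CT and was listed at 0 in DLD-1 and SW620. ITGAV-201 holds 2 coding exons, of 62 and 46 bases, that ITGAV-202 lacks, printed here because they are what separates the transcripts (GENCODE 29, hg38, plus strand).
ITGAV exon of 62 bases, chr2:186630797-186630858: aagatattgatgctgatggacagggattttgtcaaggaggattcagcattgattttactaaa
ITGAV exon of 46 bases, chr2:186633329-186633374: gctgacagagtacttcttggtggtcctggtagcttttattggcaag
HCT116 thus carried mostly ITGAV-202, as HCEC-1CT did, and DLD-1 and SW620 carried ITGAV-201.

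Genes that work with integrins were set beside the members. Of 29 adhesion plaque genes, 1 was higher in all 3 cancer lines (TNS4) and 1 lower (TNS1). These counts are near the 2.68% higher and 2.99% lower of all genes. TNS4, a tensin without an actin-binding region, had 5.35, 52.9, 32.0 and 0.152 FPKM in HCT116, DLD-1, SW620 and HCEC-1CT. TNS1, a tensin of fibrillar adhesions, had 2.44, 1.12, 4.74 and 56.8 FPKM. Of the kindlins, which activate integrins, epithelial FERMT1 had 2.62, 10.4, 17.2 and 0.849 FPKM, and FERMT2 had 18.5, 0.0577, 4.73 and 25.2 FPKM. PTK2B, a kinase related to but distinct from focal adhesion kinase, had 4.10, 9.98, 10.4 and 0.812 FPKM. ACTN4, an actin cross-linker, had 104, 80.8, 237 and 26.5 FPKM.

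Of 6 hemidesmosome genes, 0 were called in all 3 lines in either direction, where 2.68% of all genes were higher and 2.99% lower. A count of 0 among 6 genes is near these shares. KRT5 and KRT14 stayed below 1 FPKM in every library, with highest values of 0.986 and 0.793 FPKM. PLEC, the plectin that links ITGB4 to keratin, had 94.7, 81.5, 183 and 66.8 FPKM, and DST, another plakin of hemidesmosomes, had 34.2, 61.1, 33.9 and 81.5 FPKM. CD151, a tetraspanin partner of laminin receptors, had 55.3, 101, 78.8 and 47.7 FPKM. COL17A1, the transmembrane collagen of hemidesmosomes, had 2.04, 20.4 and 1.82 FPKM in the cancer lines and was listed at 0 in HCEC-1CT. COL17A1 was called higher in DLD-1 alone, at a log2 ratio of 4.42. ITGA6 and ITGB4, which are members, were called in each cancer line, and PLEC, DST and CD151 in none.

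Of 22 basement membrane partners, 3 were higher in all 3 lines and 7 lower, where 2.68% and 2.99% of all genes were. TINAGL1, a matrix protein of basement membranes, had 50.1, 73.8, 156 and 0.195 FPKM. NID2, a nidogen that links laminin to collagen IV, had 0.190, 0.0459, 0 and 132 FPKM, and NID1 had 0.0135, 0, 5.30 and 34.6 FPKM. Both nidogens were 4-fold lower in each cancer line. COL4A1 and COL4A2, the main chains of collagen IV, had 0.0488, 1.19, 0.345 and 59.9 FPKM and 0.00619, 1.90, 0.923 and 149 FPKM. COL7A1, the anchoring fibril collagen, had 6.14, 2.72, 10.3 and 495 FPKM. RNA of both nidogens and of COL4A1 and COL4A2 thus stood lower in the cancer lines than in HCEC-1CT.

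Of 30 other integrin ligands, 1 was higher in all 3 lines (CDH1) and 13 were lower, where 2.68% and 2.99% of all genes were. COL1A2 was listed at 0 in each cancer line and at 208 FPKM in HCEC-1CT, and COL3A1 had 0.256, 0, 0.00620 and 198 FPKM. Several of these ligands are also fibroblast markers. TNC, a matrix protein of wounds and tumours, had 0.0196, 0.0476, 62.4 and 249 FPKM, so SW620 stood apart from the other cancer lines. COL6A3, a collagen VI chain, had 1.43, 0.0158, 0.387 and 83.9 FPKM and EMILIN1, a glycoprotein of elastic fibres, 0.188, 0.113, 0.172 and 65.1 FPKM. Of 9 latency and TGF-beta genes, 2 were lower in all 3 lines: TGFB3 at 0.491, 1.94, 1.17 and 16.1 FPKM and LTBP1, which tethers latent TGF-beta, at 4.41, 12.4, 0.222 and 147 FPKM. Of the related latent TGF-beta binding proteins, LTBP3 had 70.7, 8.07, 126 and 25.8 FPKM and LTBP4 48.4, 7.24, 21.4 and 51.1 FPKM. Of 13 tetraspanins and lateral partners 0 were called in all 3 lines in either direction, near the 2.68% and 2.99% of all genes.

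Among the cancer lines, the most members differed between SW620 and HCT116: of 26 tested, 6 were higher in SW620 (ITGA5, ITGA6, ITGB4, ITGB6, ITGB7 and LAMA3) and 2 lower (ITGA3 and LAMC3), with 4.37% of all genes higher and 3.95% lower. Against DLD-1, 5 members of 22 were higher in SW620, ITGA5, ITGA7, ITGB7 and LAMA3 among them, and 0 lower, where 5.35% of all genes were higher and 4.82% lower. In DLD-1 over HCT116, 1 of 24 was higher (ITGB6) and 3 were lower (ITGA7, ITGB8 and LAMC3), where 5.04% of all genes were higher and 5.51% lower.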

How the data were processed

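RNA sequencing libraries of 4 spheroid cultures were analysed, 1 per line. The submitters' processing notes name FastQC, HISAT2 and the build hg38. The authors deposited FPKM values in a gene and a transcript table; the sources used here name neither the program that made them nor its annotation or filters. Each of these tables also has 1 value column that no sample label matches, which was left out. One member is counted in the totals but not reported by name here. Members and the other lists were chosen with earlier results of these data known. Ratios, calls and sums were computed in Python 3.11.15 with pandas 2.3.3 and numpy 2.4.6, and the call rule was tested on simulated data. Transcript types and exons came from GENCODE 29, in which 34 of 38 members have the same coordinates, and promoters from RefSeq. Depth was estimated from the steps of FPKM multiplied by length in genes with 1 transcript. Values were given in full for members called in at least 1 comparison or at 50 FPKM or more. From 5 of the other 6 lists, up to 6 genes per list at 10 FPKM or more with the largest median ratio were named, plus ligands paired with a receptor. Alternatives were the pseudocount, the threshold, the scaling and filters on low values; ITGB1 summed with ITGB1P1, and protein-coding transcripts alone, were added after seeing the data.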

Additional observations from a re-analysis of the deposited data

How the results depend on the processing

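No paired analysis was possible because each line has 1 library and no test was run. Of the counts, medians and complexes, 100 values were kept, 14 moved and 2 turned direction. Kept counts lay within 1.5 times of the reported count. Kept medians had the same direction, but their log2 values could differ by more than 1.5 times. In DLD-1 the median was -0.0863, and -0.45 with a pseudocount of 0.1 FPKM. With a pseudocount of 5 FPKM the members higher and lower than HCEC-1CT numbered 4 and 3 in HCT116 and 3 and 5 in DLD-1, and 2 and 2 in all 3 lines. With a 2-fold threshold 11 were higher and 14 lower in HCT116, 9 higher in DLD-1, 13 lower in SW620 and 11 lower in all 3 lines. The member median ranged from -0.62 to 0.0169 in HCT116, from -0.45 to 0.0536 in DLD-1 and from -0.58 to 0 in SW620, with 0.0169 (HCT116) and 0 (SW620) over all members and 0.0536 (DLD-1) over members at 5 FPKM or more. At 5 FPKM, 4 laminin trimers had all chains in HCT116 and 4 in HCEC-1CT. Of 43 member calls, 43 were kept with a pseudocount of 0.1 FPKM and with scaling to the protein-coding total, 42 with median-ratio scaling and 27 with a pseudocount of 5 FPKM; none turned direction. A larger pseudocount and a stricter presence level lower these counts by construction. The single library per line limits these calls, and the part of depth in them was not tested.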
